A study of Mus musculus with 4 samples.

Results

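Uridine phosphorylase 1 (Upp1) and 9 further enzymes of pyrimidine synthesis, salvage and breakdown (Uck1, Uck2, Uckl1, Cda, Tymp, Cad, Dhodh, Umps and Dpyd) were followed in lymphoid tissue inducer (LTi) cells from Gata3-KO and control mice. The set holds 10 of the 27179 genes in the deposited table. Its members were picked by name, with Upp1 included because it was low in the Gata3-KO libraries, so the Upp1 values below are a description and carry no test. All 10 members passed the filter on low values that left 14254 genes for testing.

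LTi cells are innate lymphoid cells of the gut and of developing lymph nodes, and GATA3 is a transcription factor that acts throughout the innate lymphoid lineages. The mutant cells came from Gata3fl/fl mice that carried VavCre, a Cre recombinase driven by a promoter active in blood-forming cells and their progeny, and are called Gata3-KO. The control cells (Ctrl) came from Gata3+/+ mice, for which the labels name no Cre. Both genotypes were on the C57BL/6 strain, no treatment is given, and the sources used here give neither age nor sex of the mice. In both, cells were sorted from small intestinal lamina propria as lineage-negative, CD127-positive and CCR6-positive cells without KLRG1, NK1.1 or NKp46. Each genotype had 2 RNA-seq libraries, numbered 1 and 2. The labels do not say whether they came from separate mice, so each p-value below measures the spread between these libraries.

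The Gata3-KO libraries held 24315878 and 23973995 reads over genes, and the Ctrl libraries held 14294708 and 12670034, so that 3 reads were worth 0.123 and 0.125 CPM (the share of a library scaled to a common library size) in Gata3-KO and 0.210 and 0.237 in Ctrl. Gata3 itself stood at 34.5 and 23.3 RPKM (reads scaled to exon length in kilobases and to library size) in Gata3-KO and 84.3 and 50.7 RPKM in Ctrl. Its reads were thus lower but not absent in Gata3-KO, and the difference did not pass the limma test described below.

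Markers of the sorted cells and of others were summed in each library, and genes are called where the limma adjusted p over all tested genes is under 0.05. Counts on the deposited scale are followed by those found with median-ratio scaling, which sets each library by the median ratio of its reads to the gene means. Of all tested genes 8.3% were called higher and 0.688% lower, against 0.61% and 0.435% after median-ratio scaling. An unadjusted limma p under 0.05 was reached by 4346 of all 14254 tested genes, and by 3220 after that scaling. All 10 LTi markers had reads in every library, and summed to 1215 and 1465 RPKM in Gata3-KO and 1809 and 1279 RPKM in Ctrl. On both scales 0 of the 10 were called by limma (2 at an unadjusted p under 0.05, and 5 after median-ratio scaling) and 0 by limma-voom. In 4 of them both Gata3-KO values lay below both Ctrl values, and in 8 after median-ratio scaling, where 7.58% and 25.2% of all tested genes did so, and the median log2 difference of the 10 was -0.28, and -0.87 after that scaling. Markers of B cells summed to 1443 and 1139 RPKM in Gata3-KO against 51.5 and 102 RPKM in Ctrl, with 9 of 9 called higher and 1 of 9 after median-ratio scaling. Those of epithelium summed to 2080 and 2987 RPKM in Gata3-KO against 498 and 316 RPKM in Ctrl, with 10 of 11 called higher and 5 of 11 after that scaling. T cell markers summed to 626 and 338 RPKM in Gata3-KO against 86.0 and 72.9 RPKM in Ctrl, with 4 of 8 called higher and 0 after that scaling (4 at an unadjusted p under 0.05; 0 called by limma-voom). Other lists held genes that were lower in Gata3-KO, as Upp1 was. Markers of type 2 innate lymphoid cells (ILC2) summed to 10.2 and 5.82 RPKM in Gata3-KO against 279 and 162 RPKM in Ctrl, and of the 3 tested Arg1 was called lower on both scales. The log2 differences of the 3 ran from -4.83 to -0.52 with a median of -0.78. In 1 of the 3 both Gata3-KO values lay below both Ctrl values, where 7.58% of all tested genes did so. After median-ratio scaling this held for 2 of the 3, where 25.2% of all tested genes did so. Of 8 tested markers of NK cells, ILC1 and NKp46-positive ILC3, 2 were called lower, Ncr1 and Klrk1, and after median-ratio scaling Klrk1 alone, while the list summed to 73.1 and 43.0 RPKM in Gata3-KO against 62.7 and 121 RPKM in Ctrl. The log2 differences of the 8 ran from -4.01 to 1.86 with a median of 0.07. Both Gata3-KO values lay below both Ctrl values in 3 of the 8 and above them in 2, where 7.58% and 53.9% of all tested genes did so. After median-ratio scaling they lay below in 4 of the 8 and above in 0, where 25.2% and 30.1% did so. Ncr1, which encodes the NKp46 that the sort gated against, had 0.0562 and 0.428 RPKM in Gata3-KO and 6.84 and 14.8 RPKM in Ctrl. Myeloid markers summed to 35.3 and 184 RPKM in Gata3-KO against 33.5 and 46.3 RPKM in Ctrl, so the second Gata3-KO library stood apart. Those of stroma and endothelium summed to 37.1 and 63.7 RPKM in Gata3-KO against 39.4 and 96.4 RPKM in Ctrl. On the deposited scale limma and limma-voom called 0 of 8 tested myeloid markers (2 at an unadjusted p under 0.05 in limma) and 0 of 7 tested markers of stroma and endothelium (0), and no marker list had a gene at 0 in all libraries.

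Cells obtain pyrimidine nucleotides along 2 routes. De novo synthesis builds the ring from bicarbonate, glutamine and aspartate and ends in uridine monophosphate (UMP), while salvage phosphorylates uridine and cytidine taken up from outside or freed by RNA turnover. Uridine phosphorylase works against salvage of the nucleoside, since it splits uridine into uracil and ribose 1-phosphate. The base can then be degraded by the enzyme chain that starts with dihydropyrimidine dehydrogenase, and the sugar phosphate can enter the pentose phosphate pathway and glycolysis.

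Upp1 (Entrez 22271) lies at chr11:9118008-9136170 in the mouse build mm10. RefSeq (assembly GRCm38.p6) gives it 3 promoter windows, each running from 250 bases before to 50 bases after an annotated start on the plus strand. A pair that shares no base is shown because the members were compared between Gata3-KO and Ctrl cells, which differ in a gene for a GATA factor. Capitals mark matches, on either strand, to 4 spellings of the GATA-family motif. The first spelling searched was AGATAA and the next was AGATAG, followed by the variant TGATAA and lastly by the variant TGATAG. No matches in these windows overlap.
Upp1, chr11:9117758-9118057: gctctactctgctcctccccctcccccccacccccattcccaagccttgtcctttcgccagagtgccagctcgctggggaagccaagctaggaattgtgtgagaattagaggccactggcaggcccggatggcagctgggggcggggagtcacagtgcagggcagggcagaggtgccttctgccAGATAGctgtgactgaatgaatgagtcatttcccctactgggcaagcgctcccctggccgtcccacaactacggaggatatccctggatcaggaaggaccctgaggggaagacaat
Upp1, chr11:9118257-9118556: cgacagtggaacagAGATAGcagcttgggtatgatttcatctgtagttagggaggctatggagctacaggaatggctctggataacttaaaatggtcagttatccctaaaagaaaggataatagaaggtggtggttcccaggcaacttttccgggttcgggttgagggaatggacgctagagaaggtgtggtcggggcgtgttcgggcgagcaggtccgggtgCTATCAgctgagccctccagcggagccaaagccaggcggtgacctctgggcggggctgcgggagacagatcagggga
The upstream window, around the start at the 5′ end of the gene, had 1 match, AGATAG on the plus strand. The downstream window had 2, AGATAG and CTATCA, the reverse complement of TGATAG. The remaining Upp1 window shares 205 bases with the upstream one and held the same single match. Such matches were common, with at least 1 in 29.8% of the 32851 RefSeq windows of this length and at least 2 in 7.77%. Of the 9 members with an entry, Upp1, Tymp and Umps had a window with a match. Binding of GATA3 was not measured.

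Upp1 was low in both Gata3-KO libraries and was the most abundant member in both Ctrl libraries. It stood at 3.65 and 10.5 RPKM in Gata3-KO and at 92.0 and 76.9 RPKM in Ctrl, which rests on 136 (exact Poisson 95% interval 114 to 161) and 387 (349 to 428) reads in Gata3-KO and on 2014 (1927 to 2104) and 1492 (1417 to 1570) reads in Ctrl. The intervals cover counting error only. The genotypes did not overlap, and the Gata3-KO libraries differed more from each other than the Ctrl libraries did. Means were 7.09 ± 4.87 RPKM in Gata3-KO and 84.4 ± 10.7 RPKM in Ctrl (SD, n = 2 each), a Gata3-KO over Ctrl ratio of 0.084. On the log2(RPKM + 1) scale of the table the difference was -3.54, and it was -4.19 with the second Gata3-KO library left out and -2.88 with the first left out. In bulk RNA, fewer cells that express a gene and less RNA per cell cannot be told apart. Arg1 of the ILC2 list, and Ncr1 and Klrk1 of the list of NK cells, ILC1 and NKp46-positive ILC3, were also called lower in Gata3-KO. The rest of those lists did not all follow. The median log2 difference was -0.78 over the 3 tested ILC2 markers. It was 0.07 over the 8 tested genes of the other list, with values up to 1.86. The part of such markers in the Upp1 difference was not tested.

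A shift common to many genes bears on every value here. The median tested gene was 0.43 higher in Gata3-KO on the deposited log2 scale. Median-ratio scaling brought that shift to 0.05. The Upp1 difference was then -4.08, with 3.12 and 8.20 scaled RPKM in Gata3-KO and 107 and 99.6 in Ctrl.

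Ratios within a library do not depend on its scaling. Upp1 amounted to 0.0907 and 0.239 of the summed RPKM of the uridine-cytidine kinases Uck1 and Uck2 in Gata3-KO, and to 3.56 and 2.69 times that sum in Ctrl. Against the summed RPKM of the 3 de novo genes Cad, Dhodh and Umps, the ratio was 0.136 and 0.324 in Gata3-KO and 4.18 and 3.50 in Ctrl. The order of transcripts was thus opposite in the genotypes, with the summed kinase transcripts above Upp1 in both Gata3-KO libraries and below it in both Ctrl libraries. Pnp, purine nucleoside phosphorylase, carries out the matching cleavage of purine nucleosides, and Upp1 amounted to 0.318 and 0.799 of it in Gata3-KO and to 4.62 and 7.11 times it in Ctrl. Pnp itself overlapped between the genotypes on the deposited scale, at 11.5 and 13.2 RPKM in Gata3-KO and 19.9 and 10.8 RPKM in Ctrl. After median-ratio scaling both its Gata3-KO values lay below both its Ctrl values, as in 25.2% of all tested genes. Reads of Pnp may be shared with the near-identical Pnp2.

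**Figure D1:**
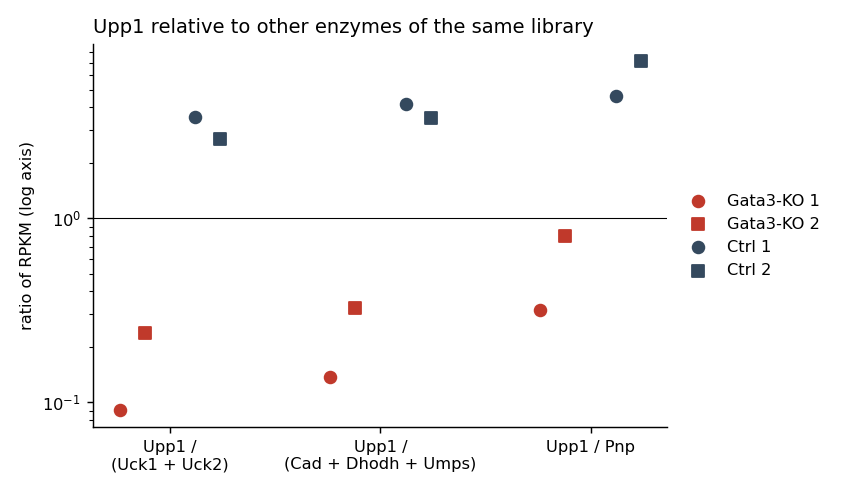
Ratio of Upp1 RPKM to the summed RPKM of Uck1 and Uck2, to that of Cad, Dhodh and Umps, and to Pnp, on a log axis, with 1 point per library. Both Gata3-KO points lie below 1 and both Ctrl points above 1 for each ratio.

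Upp1 made up 3.19% and 7.47% of the members' summed RPKM in Gata3-KO and 57.7% and 55.5% in Ctrl. The sum over the 10 members was 114 and 141 RPKM in Gata3-KO and 159 and 138 RPKM in Ctrl. On this deposited scale the summed level thus overlapped between the genotypes while its make-up did not. Median-ratio scaling divides the values by 1.17 and 1.28 in Gata3-KO and by 0.862 and 0.771 in Ctrl. Both Gata3-KO sums then lay below both Ctrl sums. Among all tested genes Upp1 ranked 8237 and 5232 from the top in Gata3-KO and 582 and 601 in Ctrl. By mean RPKM the members ran Uckl1, Uck2, Uck1, Cda, Cad, Umps, Dhodh, Upp1, Dpyd and Tymp in Gata3-KO, and Upp1, Uck1, Uck2, Cad, Uckl1, Dhodh, Cda, Umps, Tymp and Dpyd in Ctrl. Many neighbours in these orders lay within the spread of their libraries, such as Cad and Umps in Gata3-KO and Uck1 and Uck2 in Ctrl.

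**Figure D2:**
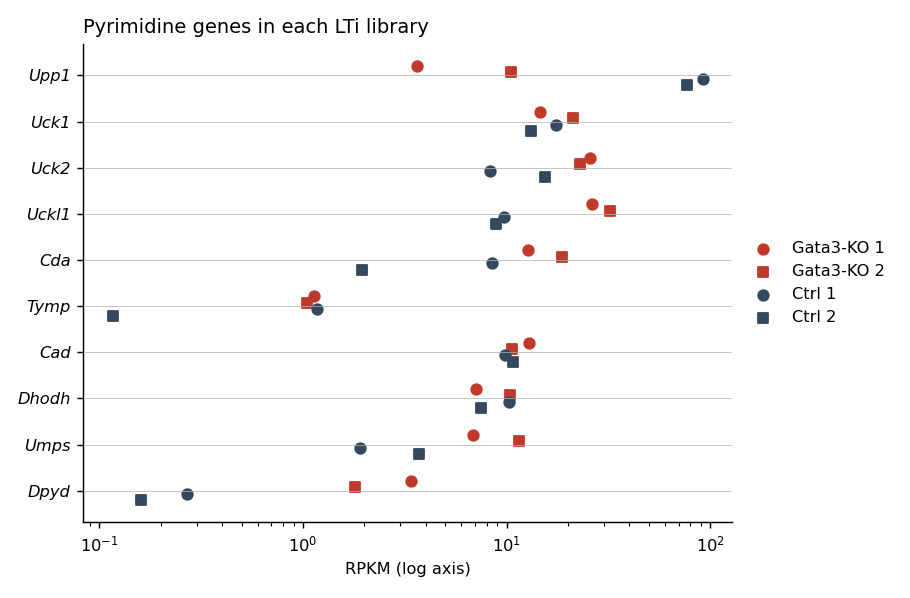
RPKM of the 10 members in each of the 4 libraries on a log axis, with 1 point per library. Upp1 stands apart from the other members in having both Gata3-KO points, at 3.65 and 10.5 RPKM, well to the left of both Ctrl points, at 92.0 and 76.9 RPKM.

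The kinases Uck1, Uck2 and Uckl1 return uridine and cytidine to the nucleotide pool and so use the same substrate as Upp1. Uckl1 (uridine-cytidine kinase 1-like 1; Entrez 68556; chr2:181569149-181582027) rose in Gata3-KO. It stood at 26.3 and 32.3 RPKM in Gata3-KO and 9.73 and 8.89 RPKM in Ctrl, with 1159 and 1403 reads in Gata3-KO and 252 and 204 in Ctrl. It was the most abundant member in Gata3-KO, and its genotypes did not overlap. The means were 29.3 ± 4.24 RPKM in Gata3-KO and 9.31 ± 0.597 RPKM in Ctrl (SD, n = 2 each). The log2 difference was 1.55 ± 0.28 (SE; 95% interval 0.88 to 2.22), with a limma adjusted p of 0.0309. After median-ratio scaling the difference was 1.00 ± 0.22 with a limma adjusted p of 0.0938. The call was also lost without the second Gata3-KO library (limma adjusted p = 0.0643), without the first Ctrl library (0.0962) and without the second (0.0872). Uckl1 shares 459 exon bases with the antisense gene Uckl1os and 67 with Zfp512b on its own strand, and whether reads were counted by strand is not given in the sources used here.

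Uck2 (Entrez 80914; chr1:167222895-167285933), a kinase known from human cells to be high in proliferating and tumour cells, had 25.6 and 22.9 RPKM in Gata3-KO against 8.31 and 15.4 RPKM in Ctrl. The genotypes did not overlap, with a log2 difference of 1.03 ± 0.35 that did not pass the test (limma adjusted p = 0.113). After median-ratio scaling the Uck2 values overlapped and the difference was 0.48. Uck1 (Entrez 22245; chr2:32255002-32260105), the paralog of Uck2, had 14.6 and 21.2 RPKM in Gata3-KO against 17.5 and 13.1 RPKM in Ctrl. These overlapped, with a log2 difference of 0.20 ± 0.32 (95% interval -0.57 to 0.97; limma adjusted p = 0.707) that was -0.35 after median-ratio scaling. After that scaling both Gata3-KO values of Uck1 lay below both Ctrl values, as in 25.2% of all tested genes. The ratio of Uck2 to Uck1 was 1.75 and 1.08 in Gata3-KO and 0.475 and 1.17 in Ctrl, which also overlapped.

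Cda and Tymp act on other pyrimidine nucleosides. Cda (Entrez 72269; chr4:138338528-138368311), cytidine deaminase, makes uridine from cytidine. It had 12.8 and 18.7 RPKM in Gata3-KO against 8.47 and 1.95 RPKM in Ctrl, and its genotypes did not overlap. The Ctrl libraries lay far apart, resting on 98 and 20 reads, and the log2 difference of 1.64 ± 0.58 (95% interval 0.21 to 3.08) did not pass the test (limma adjusted p = 0.127). Tymp (Entrez 72962; chr15:89371631-89377036), thymidine phosphorylase, splits thymidine as Upp1 splits uridine. It was the lowest member in Gata3-KO, with 1.13 and 1.05 RPKM in Gata3-KO against 1.17 and 0.116 RPKM in Ctrl. The values overlapped (log2 difference 0.42 ± 0.38; limma adjusted p = 0.489), the last of them rested on 3 reads, and Tymp shares 856 exon bases with Sco2 on its own strand and 535 with Ncaph2 on the other.

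In the de novo route, Cad (Entrez 69719; chr5:31054620-31078479) encodes the multifunctional enzyme of the opening steps. It had 12.9 and 10.6 RPKM in Gata3-KO against 9.78 and 10.8 RPKM in Ctrl. Dhodh (Entrez 56749; chr8:109593244-109608699), the mitochondrial dihydroorotate dehydrogenase, had 7.08 and 10.4 RPKM in Gata3-KO against 10.3 and 7.49 RPKM in Ctrl. Both genes overlapped between the genotypes on the deposited scale. After median-ratio scaling both Gata3-KO values lay below both Ctrl values in each gene, as in 25.2% of all tested genes. Cad had a log2 difference of 0.17 ± 0.29 (95% interval -0.52 to 0.87; limma adjusted p = 0.718), which was -0.36 after median-ratio scaling. Dhodh had one of -0.03 ± 0.34 (95% interval -0.84 to 0.78; limma adjusted p = 0.965), which was -0.56 after that scaling. For both, the intervals reach differences of more than 0.5 in either direction on the log2 scale.

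Umps (Entrez 22247; chr16:33954782-33967038), the enzyme that completes UMP, was the de novo gene whose genotypes did not overlap on the deposited scale. It had 6.82 and 11.6 RPKM in Gata3-KO against 1.91 and 3.70 RPKM in Ctrl. The log2 difference of 1.42 ± 0.41 (95% interval 0.43 to 2.41) did not pass the test (limma adjusted p = 0.0788), and it was 0.94 after median-ratio scaling. Within each library, Umps amounted to 0.530 and 1.09 of Cad in Gata3-KO and 0.196 and 0.344 of Cad in Ctrl. Umps shares 213 exon bases with the predicted gene Gm15829 on the other strand.

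Dpyd (Entrez 99586; chr3:118562109-119432924), dihydropyrimidine dehydrogenase, starts the breakdown of uracil and thymine, and it rose in Gata3-KO. It had 3.39 and 1.80 RPKM in Gata3-KO against 0.268 and 0.160 RPKM in Ctrl, and the genotypes did not overlap. In reads this was 366 and 191 in Gata3-KO, and 17 (exact Poisson 95% interval 9.90 to 27.2) and 9 (4.12 to 17.1) in Ctrl. The ratio of the means was 12.1, while the log2(RPKM + 1) difference, which understates the change of a low gene, was 1.53 ± 0.34 (95% interval 0.69 to 2.37; limma adjusted p = 0.0475). The call was lost after median-ratio scaling (difference 1.28; limma adjusted p = 0.121), with a pseudocount of 0.1 (difference 3.06; 0.0584), without the first Gata3-KO library (0.0600) and without the first (0.141) or the second (0.140) Ctrl library.

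Of the 9 members other than Upp1, then, 2 were called higher and 0 lower, where 8.3% of all tested genes were called higher and 0.688% lower (8.99% in either direction). Their median log2 difference was 1.03, which is 0.60 above the median tested gene. After median-ratio scaling 0 of the 9 were called by limma (2 at an unadjusted p under 0.05) and 0 by limma-voom, where 0.61% of all tested genes were called higher and 0.435% lower, and the median of the 9 was 0.48. An unadjusted limma p under 0.05 was reached after that scaling by 3220 of all 14254 tested genes. In 5 of the 9 both Gata3-KO values lay above both Ctrl values, a share near the 53.9% of all tested genes that did so, and in 0 of the 9 both lay below, where 7.58% of tested genes did. After median-ratio scaling 4 of the 9 did so (Uckl1, Cda, Umps and Dpyd), where 30.1% of tested genes did, and 3 of the 9 had both Gata3-KO values below both Ctrl values (Uck1, Cad and Dhodh), where 25.2% did. Markers of B cells, epithelium and T cells were higher in the same libraries, and their part in the members' differences was not tested.

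**Figure D3:**
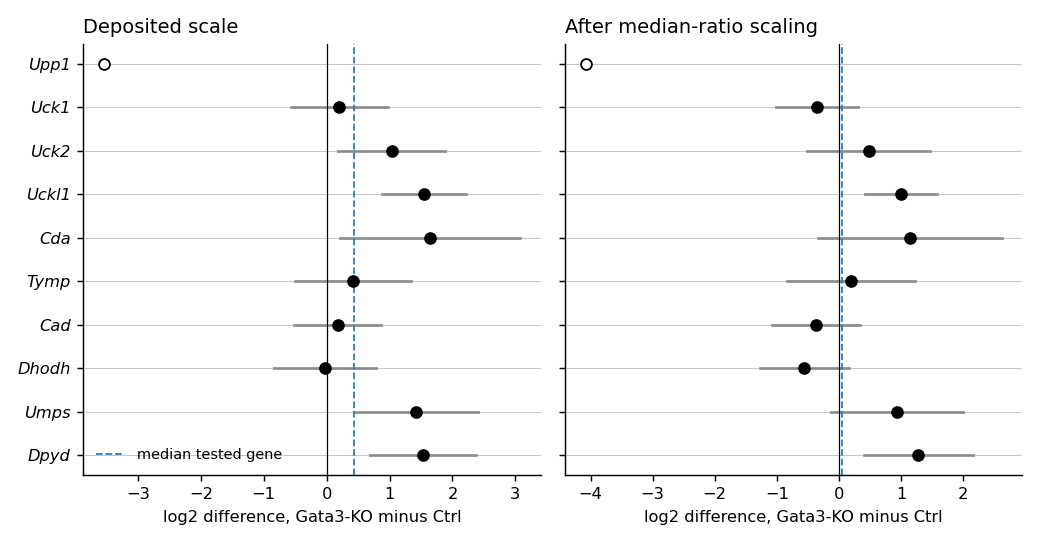
Log2 difference, Gata3-KO minus Ctrl, of each member on the deposited scale (left) and after median-ratio scaling (right). Bars are limma 95% intervals (n = 2 libraries each), the open circle is Upp1, which was chosen for its difference and has no interval, and the dashed line is the median tested gene, at 0.43 on the left and 0.05 on the right. Uckl1 and Dpyd, called on the deposited scale, keep a positive difference after scaling, while Uck1 and Cad turn negative.

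Enzymes around the members were taken from a list of 61 further pyrimidine genes, of which 55 could be tested. On the deposited scale 12 of the 55 were called higher and 0 lower, where 8.3% and 0.688% of all tested genes were, with a median log2 difference of 0.95, which is 0.52 above the median tested gene. After median-ratio scaling 0 of the 55 were called by limma (19 at an unadjusted p under 0.05) and 0 by limma-voom, where 0.61% of all tested genes were called higher and 0.435% lower by limma, and the median was 0.50. Among all 14254 tested genes 3220 reached an unadjusted limma p under 0.05 after that scaling.

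Of 5 further genes of base salvage and breakdown, 2 had enough reads to be tested. Upp2, the second uridine phosphorylase of the mouse, had 0 reads in all 4 libraries. Dpys, which follows Dpyd in breakdown, had 0 and 0 reads in Gata3-KO and 0 and 2 in Ctrl. Upb1, the last enzyme of that chain, had 5.84 and 5.17 RPKM in Gata3-KO against 1.22 and 2.53 RPKM in Ctrl. The difference of Upb1 was 1.22 on the log2 scale and did not pass the test (limma adjusted p = 0.0891). Uprt, a homolog of the enzymes that return uracil to UMP in microbes, had 3.55 and 4.88 RPKM in Gata3-KO against 1.13 and 1.06 RPKM in Ctrl. Its log2 difference of 1.30 did not pass either (limma adjusted p = 0.0613).

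Among the 10 genes that carry UMP to CTP, 3 rose, where 8.3% of all tested genes did, and all lost the call after median-ratio scaling. These were Nme2 and Nme1, nucleoside diphosphate kinases with near-identical sequence between which reads may be split, and Cmpk2, a mitochondrial nucleotide kinase. Nme2 had 86.3 and 77.8 RPKM in Gata3-KO against 20.6 and 31.6 RPKM in Ctrl (log2 difference 1.65; limma adjusted p = 0.0327). Nme1 had a log2 difference of 1.40 (0.0338) and Cmpk2 one of 1.83 (0.0396). Ctps, the CTP synthase that dividing human lymphocytes are known to need, overlapped at 8.47 and 13.9 RPKM in Gata3-KO against 9.98 and 8.17 RPKM in Ctrl.

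Genes of deoxynucleotide and dTMP supply held 5 called higher among 14, where 8.3% of all tested genes were, and none after median-ratio scaling. Dtymk, thymidylate kinase, had 22.5 and 26.1 RPKM in Gata3-KO against 2.78 and 6.33 RPKM in Ctrl (log2 difference 2.26; limma adjusted p = 0.0290). Dck, the kinase that salvages deoxycytidine, had 9.36 and 11.4 RPKM in Gata3-KO against 1.92 and 2.63 RPKM in Ctrl (1.80; 0.0312). The log2 difference was 1.66 for Dctpp1, which removes excess dCTP (0.0301), and 2.45 for Shmt1, which supplies one-carbon units for dTMP (0.0302). Rrm1, the large subunit of ribonucleotide reductase, lay at the other end with a log2 difference of -0.49 that did not pass (limma adjusted p = 0.301).

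In UDP-sugar synthesis, which consumes UTP, 3 of 6 genes rose, again beside 8.3% of all tested genes, and all lost the call after median-ratio scaling. They included Uap1l1, a homolog of the UDP-N-acetylglucosamine pyrophosphorylase Uap1 (log2 difference 2.29; limma adjusted p = 0.0325), and Ugdh, which makes UDP-glucuronate (1.47; 0.0440). Of 8 genes of ribose phosphate use, the transketolase Tkt rose, with 69.7 and 76.9 RPKM in Gata3-KO against 27.3 and 34.8 RPKM in Ctrl (1.22; 0.0465). It too lost the call after scaling. None of the 7 nucleotidases was called, with log2 differences between 0.15 for Nt5c2 and 1.54 for Nt5e (CD73), and none of 3 receptors for uridine nucleotides, with differences between 0.59 for P2ry14 and 1.09 for P2ry6.

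None of the 5 tested nucleoside transporters was called, and their log2 differences ran from -1.48 for Slc29a3 to 1.27 for Slc28a2. Slc29a3, which encodes the lysosomal nucleoside transporter ENT3, lies at chr10:60712072-60752849 and took a large part of each library. It held 7.87% and 7.61% of all reads in Gata3-KO and 17.2% and 27.1% in Ctrl, and stood at 15023 and 14521 RPKM in Gata3-KO against 32796 and 51685 RPKM in Ctrl. The Slc29a3 difference did not pass the test (limma adjusted p = 0.0955), and whether all these reads came from its transcript was not tested. Other genes also took large shares. Rn45s held 10.3% and 9.55% of reads in Gata3-KO and 8.07% and 6.35% in Ctrl, and Slc39a6 held 5.66% and 8.46% in Ctrl. With library totals taken without the reads of Slc29a3, an alternative chosen after that share was seen, the median tested gene was 0.27 higher in Gata3-KO, the Upp1 difference was -3.76 and 0 of the other 9 members were called.

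Purine genes and proliferation genes were looked at for comparison. Of 23 tested purine genes 4 were called higher and 0 lower, where 8.3% and 0.688% of all tested genes were, with a median log2 difference of 0.46, close to that of all tested genes. The 4 were Gart (1.85; limma adjusted p = 0.0292) and Adsl (1.36; 0.0420) of de novo synthesis, and Gda (1.52; 0.0351) and Aprt (1.44; 0.0365) of salvage and breakdown. Of 20 proliferation genes 6 were called higher and 0 lower, against the same shares of all tested genes, and the summed level was 173 and 188 RPKM in Gata3-KO against 102 and 96.1 RPKM in Ctrl. Ccnb2, a mitotic cyclin, had the largest log2 difference of the named ones (2.69; limma adjusted p = 0.0312), while Pcna, the clamp of DNA replication, was at -0.41 (0.372). After median-ratio scaling no purine gene (6 at an unadjusted p under 0.05) and no proliferation gene (10) was called by limma, nor by limma-voom. Among all 14254 tested genes 3220 reached an unadjusted limma p under 0.05 after that scaling. The part of proliferation in the differences of the pyrimidine genes was not tested.

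**Figure D4:**
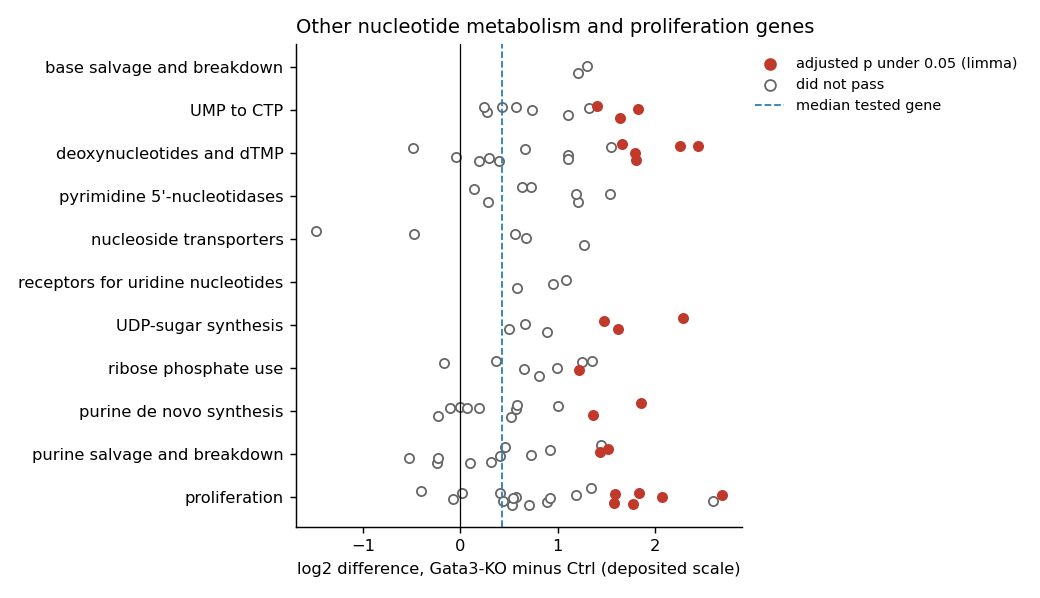
Log2 difference, Gata3-KO minus Ctrl on the deposited scale, of each tested gene of the other pyrimidine lists, the purine lists and the proliferation list, with 1 point per gene and filled points for limma adjusted p under 0.05 (n = 2 libraries each). Points lie mostly to the right of the dashed line at 0.43, the median tested gene, and no gene left of it is filled.

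The genes whose pattern over the 4 libraries was most like that of Upp1 were found by the root mean square difference between centred log2(RPKM + 1) values. Il22, the cytokine of this lineage that acts on epithelium, came nearest, at 0.192. It had 129 and 287 RPKM in Gata3-KO against 2401 and 1520 RPKM in Ctrl, so both genes were lowest in the first Gata3-KO library and highest in the first Ctrl library. Epas1, which encodes the hypoxia-inducible factor HIF-2α, followed at 0.260, with 1.87 and 8.84 RPKM in Gata3-KO against 51.7 and 63.9 RPKM in Ctrl. Next were Eng (endoglin, 0.325), Iltifb (0.325), Adgrg3 (an adhesion G protein-coupled receptor, 0.337) and Nlrp3 (the inflammasome sensor, 0.338). Iltifb is a near-identical copy of Il22, so the reads of the pair cannot be firmly separated. Likeness over 4 libraries of 2 genotypes picks mainly genes with a genotype difference of like size, and these 6 had log2 differences between -3.68 and -2.99.

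**Figure D5:**
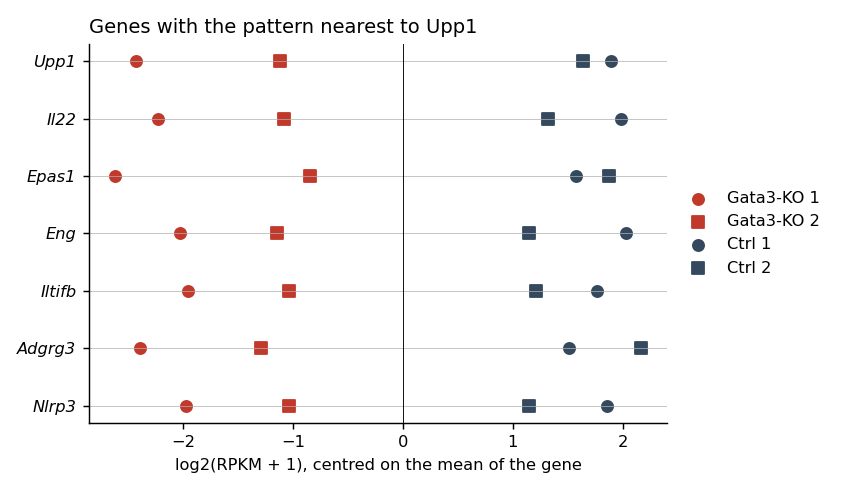
Centred log2(RPKM + 1) of Upp1 and of the 6 genes with the pattern nearest to it, 1 point per library. In all 7 genes both Gata3-KO points lie below 0 and both Ctrl points above 0, with the first Gata3-KO library lowest.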

How the data were processed

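RNA of sorted LTi cells was made into Smart-seq2 libraries, per the labels' protocols. The submitters' processing notes name Subread, featureCounts and the mm10 build. Their versions, the annotation release, the strand setting and the treatment of multi-mapping reads were not given in the sources used here. Values as the authors deposited them are log2(RPKM + 1) with 0.0001 added, as read from the values themselves, scaled to each library's total.

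Whole reads were recovered from the value steps. All 19047 genes with reads came out whole within 0.001 reads (100% of these genes). The exon length of each gene was chosen to make its reads whole, so this share says little about whether they are right. In a test of the recovery on simulated data 93.6% of 1476 genes were exact in every library. The recovered reads summed to 100.23% and 100.19% of the library totals in Gata3-KO and 100.45% and 100.27% in Ctrl. Each sum was above its total, so the reads of some genes were set too high. Genes with at least 0.523 CPM (10 reads at the median depth) in 2 libraries and 15 reads in all were tested with limma 3.58.1 in R 4.3.3 (trend, robust, pseudocount 1, two-sided, Benjamini-Hochberg over all 14254, threshold 0.05), all 4 libraries in the fit and no covariate. This called 1281 genes, 1183 higher and 98 lower in Gata3-KO. On the recovered reads limma-voom called 272. Alternatives were other scalings, filters, pseudocount, limma-voom, a replicate block and leaving out each library.

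The 10 members and all lists were chosen with earlier results of these data known. Named from the lists were called genes, at most 4 per role by adjusted p, with the lowest and highest log2 difference per role, and the 6 genes nearest to Upp1 with predicted, pseudo- and antigen receptor genes left out; 1 gene that this rule names is not reported here. Symbols, promoters and coordinates came from RefSeq by Entrez identifier (25275 of 27179 matched), and exon overlaps from GENCODE M21. Protein sequences were not used here.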

Additional observations from a re-analysis of the deposited data

How the results depend on the processing

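Upp1 kept its direction under every alternative run, with log2 differences between -4.63 and -2.88 over the fits that left out 1 library. It was chosen for this direction in the same libraries, so the kept direction is a description and no support. The counts of called genes did not hold. The main fit tested 14254 genes, against 27179 without a filter and 10003 with a filter at 5 CPM, which left out Tymp. Over all genes 1281 were called, against 149 with median-ratio scaling, 179 with TMM, 76 without a filter, 1733 with a filter at 5 CPM, 272 with limma-voom (95 after median-ratio scaling), 851 with a pseudocount of 0.1 and 448 with totals without Slc29a3, and between 0 (3661 at an unadjusted p under 0.05, without the first Ctrl library) and 1518 with 1 library left out. Of the 9 other members 3 were called with a filter at 5 CPM, 1 with a pseudocount of 0.1, and 0 under the other settings just named, with 0 to 3 when 1 library was left out. The wider pyrimidine genes called were 12, against 18 at 5 CPM, 8 with a pseudocount of 0.1, 0 under those other settings and 0 to 9 with 1 library left out. Deviations of same-numbered libraries had a correlation of -0.02 over 14254 genes. With 2 pairs this cannot tell whether same-numbered libraries were paired. With the replicate block, 1017 genes, 1 member and 7 wider genes were called, and with median-ratio scaling added 18, 0 and 0.

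Of 56 named genes other than Upp1, 5 changed sign with median-ratio scaling, TMM, limma-voom with median-ratio scaling and the block with that scaling, in that order as follows. Cad was at -0.36, -0.35, -0.39 and -0.36, Uck1 at -0.35, -0.33, -0.38 and -0.35, Ctps at -0.29, -0.27, -0.32 and -0.29, Nt5c2 at -0.38, -0.36, -0.44 and -0.38, and Uap1 at -0.078, -0.059, -0.091 and -0.078. With totals without Slc29a3, Cad was at -0.053, Uck1 at -0.031 and Nt5c2 at -0.076. With 1 library left out, on either scale, the ranges that crossed 0 were Cad -0.54 to 0.30, Uck1 -0.53 to 0.45, Uck2 -0.024 to 1.44, Dhodh -0.73 to 0.22, Tymp -0.34 to 0.90, Ctps -0.54 to 0.57, Impdh2 -1.09 to 0.13, Klrb1c -0.71 to 2.38, Nt5c2 -0.56 to 0.34, Rbks -1.34 to 0.51, Uap1 -0.43 to 0.92 and Ccr6 -0.34 to 1.37. A lone library was assumed to vary like the other genotype. The cause of these changes was not tested. Depth limits Tymp and Dpyd most, with 3 and 9 reads in the second Ctrl library.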
